A study of Homo sapiens with 6 samples.

Results

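The glycolytic isoenzymes described here are 8 genes chosen by name, HK1 and HK2 for hexokinase, ALDOA and ALDOC for aldolase, PKM and PKLR for pyruvate kinase, and LDHA and LDHB for lactate dehydrogenase. All 8 were found among the 60203 genes of the deposited count table, by the Ensembl stable identifier, and 7 of them had a count in every library. The samples are labelled as HUH7, a human hepatocellular carcinoma cell line grown in culture. RNA was collected 48 h after transfection of an siRNA by Lipofectamine RNAiMAX, with 2 samples each for the control siRNA siNC, the LETN siRNA siLETN and the NPM1 siRNA siNPM1, so that the control samples were transfected as well. The names of the 6 value columns match no sample, hence no siRNA was assigned to a column, no condition was compared with another, and the columns are called libraries 1 to 6, which are names only. Nothing in the labels says whether the samples of an siRNA came from separate cultures.

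Glycolysis splits glucose into pyruvate, and several of its steps are run by isoenzymes from separate genes that differ between tissues. The adult hepatocyte is known for the liver type of pyruvate kinase from PKLR, in an organ that both takes up and releases glucose. Most growing and tumor cells use hexokinase 1 and 2, aldolase A and the M type of pyruvate kinase from PKM instead. Lactate dehydrogenase is a tetramer of A and B subunits, of which LDHA is favored where pyruvate is turned into lactate.

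The libraries held between 8034137 and 10224212 counts, of which 3.71% to 4.20% fell on mitochondrially encoded genes. The labelled cell type was checked against 13 hepatocyte and hepatoma markers, and 9 of them were below 1 CPM, a gene's counts for every 1000000 counts of the library, in every library. These were ALB, AFP, APOA1, APOA2, APOB, TTR, TF, FGB and GPC3, with 24 counts over the 6 libraries in all and a summed level of 0.224 to 0.73 CPM. AFP, the fetal serum protein that HUH7 cells are known to secrete, was at 0 in all 6, as were APOA2, APOB and FGB, and ALB had 2 counts in all. The other 4 markers were present, namely HNF4A at 75.2 to 115 CPM, SERPINA1 at 74.3 to 145 CPM, KRT8 at 2726 to 4264 CPM and KRT18 at 1740.1 to 2504 CPM. Markers of immune, endothelial and fibroblast cells summed to at most 1.14, 0.24 and 1.72 CPM. These defining markers go against the label, and the values below are therefore given as those of the 6 deposited libraries rather than of hepatoma cells. Over 10993 genes with at least 20 counts in each library, the chi-square of the count difference per gene, which is near 1 for sampling noise alone, was 1.4 for libraries 1 and 2, 1.7 for 3 and 4, and 1.83 for 5 and 6. The other pairs of libraries had 26.4 to 68.4, and as all values lay above 1, the 6 libraries were kept apart.

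For pyruvate kinase, which makes pyruvate and ATP in the last step of glycolysis, nearly all counts came from PKM. In GRCh38 (GENCODE release 44), PKM spans chr15:72199029-72231819 and PKLR spans chr1:155289293-155301438, both read from the minus strand. PKM had 1464 CPM in library 1, 1402 in library 2, 1368 in library 3, 1369.6 in library 4, 1886 in library 5 and 1896 in library 6. Libraries 5 and 6 thus lay above the other 4, and PKM ranked 38 among all genes by its median CPM. PKLR had 1 count in library 3 and 0 in the other 5, against 84325 counts of PKM in all.

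The 250 bases before each RefSeq start of these genes are shown because one gene was abundant and the other had 1 count in all. They come from the RefSeq promoter table of GRCh38.p14, are written 5′ to 3′ on the strand of the gene, and have motif matches in capitals. PKLR has a pair of starts in this table. The window of the start that lies downstream holds CACGGG and CCCGTG 5 bases apart, the form of the carbohydrate response element for which the liver pyruvate kinase promoter is known, and this motif was chosen after the window had been seen.
PKM, chr15:72231191-72231440: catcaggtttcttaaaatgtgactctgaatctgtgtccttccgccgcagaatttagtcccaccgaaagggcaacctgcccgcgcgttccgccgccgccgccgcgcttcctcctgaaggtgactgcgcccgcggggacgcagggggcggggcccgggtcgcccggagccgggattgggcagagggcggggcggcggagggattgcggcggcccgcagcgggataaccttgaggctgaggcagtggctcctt
PKLR, downstream start, chr1:155300953-155301202: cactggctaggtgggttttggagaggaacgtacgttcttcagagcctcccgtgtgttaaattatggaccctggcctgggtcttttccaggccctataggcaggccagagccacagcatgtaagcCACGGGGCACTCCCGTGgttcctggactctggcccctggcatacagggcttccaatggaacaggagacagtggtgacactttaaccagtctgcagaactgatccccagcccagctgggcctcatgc
PKLR, upstream start, chr1:155301439-155301688: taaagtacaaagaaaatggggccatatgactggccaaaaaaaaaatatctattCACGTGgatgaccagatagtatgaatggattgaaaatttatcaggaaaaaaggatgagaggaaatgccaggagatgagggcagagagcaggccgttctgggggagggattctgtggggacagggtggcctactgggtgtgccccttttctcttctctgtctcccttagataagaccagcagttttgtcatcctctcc

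The PKM window has 68.4% GC with 28 CpG dinucleotides, whereas the PKLR windows have 57.6% with 5 and 46.0% with 2. The median over the 35116 windows in the table was 58.0% GC and 11.0 CpG. The 5th and 95th percentiles of GC were 34.4% and 78.4%, and the PKM and PKLR windows lie between them. The window of ALDOC, a gene at 3.16 to 10.8 CPM, has 68.4% with 18. That of LDHB, at 457 to 892 CPM, has 58.0% with 9. A link between these letters and the levels was not tested. CACGGG and CCCGTG at this distance were found in 1 of the 35116 windows, the downstream one of PKLR. The upstream window of PKLR holds the E-box CACGTG, which on either strand includes ACGTG, the core bound by hypoxia-inducible factors. Neither motif was found in the PKM window. Over all windows, 6.34% hold CACGTG and 18.5% hold ACGTG on either strand. A match is a description of the letters and not a measured binding site.

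Within the libraries where PKLR had 0 counts, PKM was at least 1449-fold higher in library 1, 1541-fold in library 2, 1635-fold in library 4, 2376-fold in library 5 and 1921-fold in library 6. These are lower bounds per kb of exon, made with 3 counts per library in place of 0 for PKLR and with the summed exon length of each gene. In library 3 the ratio per kb was 4402, with a 95% interval of 789.9 to 173870.0 by the exact binomial method, which covers counting error only. PKLR made up 0.00119% of the counts of the pair over all libraries (exact binomial 95% interval 3e-05% to 0.00661%). PKM counts do not tell its M1 and M2 splice forms apart. HCN3 overlaps PKLR exons on the opposite strand, and the strand setting of the counting is not given in the sources used here.

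**Figure D1:**
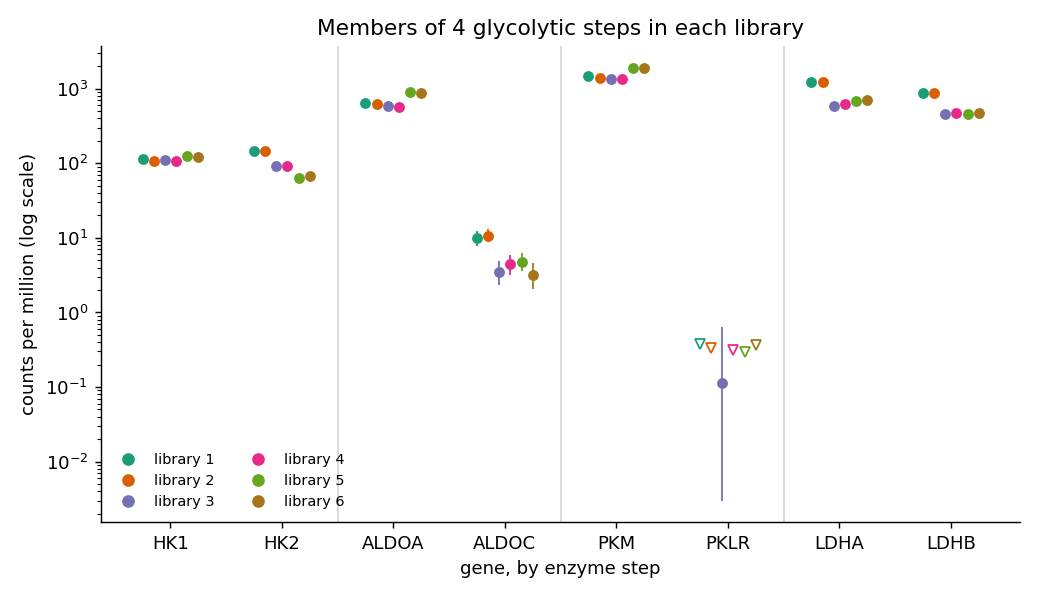
CPM (log axis) of the 8 genes in each of the 6 libraries, with 95% Poisson intervals as bars and an open triangle at the level of 3 counts where the gene had 0. PKM lay between 1368 and 1896 CPM, and PKLR had a single count in library 3.

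For aldolase, which splits fructose 1,6-bisphosphate, ALDOA carried the counts. The ubiquitous and muscle form ALDOA (chr16:30064164-30070457, plus strand) had 639.8 CPM in library 1, 620.3 in library 2, 584 in library 3, 573 in library 4, 907 in library 5 and 881 in library 6. It was highest in libraries 5 and 6, in which PKM was highest as well. The chi-square per gene between these libraries and the other 4 was 45.1 to 68.4. The share of all genes set apart in these libraries, in either direction, was not counted. ALDOC (chr17:28573115-28576948, minus strand), the form known from brain, had 9.83 CPM in library 1 and 10.8 in library 2, and 3.16 to 4.79 in the other 4. These levels rest on 26 to 96 counts per library. The Poisson 95% interval of library 1, 7.79 to 12.3 CPM, lay above that of each of libraries 3 to 6, of which the highest upper bound was 6.34 CPM. Per kb of exon, ALDOA was 39.3 to 190.0 times as abundant as ALDOC, lowest in library 2 and highest in library 6. Another gene, ENSG00000285043, overlaps ALDOA exons on the same strand, and ENSG00000274904 on the opposite one.

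Both lactate dehydrogenase subunits varied about as much between libraries, whereas their ratio moved less. LDHA (chr11:18394560-18408425, plus strand) had 1229.9 CPM in each of libraries 1 and 2, 593 in library 3, 621 in library 4, 685 in library 5 and 708 in library 6. LDHB (chr12:21635342-21757857, minus strand) had 883 CPM in library 1, 892 in library 2, 464 in library 3, 471 in library 4, 457 in library 5 and 476 in library 6. Both were higher in libraries 1 and 2 than in any other library, and the share of all genes with this pattern was not counted. The highest library exceeded the lowest 2.07-fold for LDHA, 1.95-fold for LDHB and 2.01-fold for their summed CPM.

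By counts, LDHA exceeded LDHB 1.28- to 1.499-fold in all 6 libraries. Per kb of summed exon length, 6026 bp for LDHA and 2983 bp for LDHB, the order turned, and the LDHA level was 0.633 to 0.742 of the LDHB level. With the length of the canonical transcript, 2241 and 1303 bp, the median ratio was 0.806 and again below 1 in all libraries. Canonical transcripts give LDHA a larger share than summed exons do, as their ratios ran from 0.743 in library 3 to 0.872 in library 5. With summed exons, LDHA was 38.8% to 42.6% of the lactate dehydrogenase RNA per kb. The ratio per kb was lowest in library 3, at 0.633 (exact binomial 95% interval 0.607 to 0.66), and highest in library 5, at 0.742 (0.715 to 0.77), a difference beyond counting error. ENSG00000285854 overlaps LDHB exons on the same strand.

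The window before the most upstream RefSeq start of LDHA is shown because this gene changed level between libraries and is a known target of hypoxia-inducible factors, whose core motif ACGTG is in capitals. CACGTG holds the core on both strands and is counted at both.
LDHA, chr11:18394313-18394562: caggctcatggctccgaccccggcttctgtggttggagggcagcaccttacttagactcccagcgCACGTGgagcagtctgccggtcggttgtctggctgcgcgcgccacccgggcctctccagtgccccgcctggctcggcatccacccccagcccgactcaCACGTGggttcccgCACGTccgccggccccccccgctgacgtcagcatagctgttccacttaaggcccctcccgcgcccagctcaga

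This window holds 5 matches of the core, in 3 stretches, of which 2 are the full CACGTG. The other LDHA window holds 0, as does the window of LDHB. No binding was measured, and a link between the motif and the levels was not tested. In all, 8 of the 19 windows of the 8 genes hold the core, against 18.5% of all windows, so it is not particular to LDHA. It is also in 2 of 2 windows of HK2, 3 of 3 of ALDOA, 1 of 1 of ALDOC and 1 of 2 of PKLR. The windows of PKM and HK1 lack it, and HK1 alone has 7 windows, some of which overlap.

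Hexokinase traps glucose in the cell as glucose 6-phosphate. HK1 (chr10:69269984-69401884, plus strand) is the form found in most tissues, and HK2 (chr2:74834127-74893359, plus strand) is the form known from tumors and insulin-responsive tissues. HK1 stayed within 106 to 124 CPM, and its highest library exceeded the lowest 1.17-fold. HK2 had 146 CPM in library 1, 148 in library 2, 92.4 in library 3, 92.8 in library 4, 63.6 in library 5 and 68.2 in library 6. The highest library was thus 2.33-fold above the lowest, and HK2 was lowest in the libraries in which ALDOA and PKM were highest. How many of all genes were lowest in these libraries was not counted.

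Per kb of exon, the HK2 to HK1 ratio was 1.48 in library 1, 1.62 in library 2, 0.967 in library 3, 0.987 in library 4, 0.596 in library 5 and 0.647 in library 6. The intervals of libraries 3 and 4 include 1 (exact binomial 95%, 0.88 to 1.06 and 0.902 to 1.08). With canonical transcripts, HK1 was above HK2 in all 6 libraries. The summed exons and the canonical transcript measure 6876 and 3602 bp for HK1, and 5918 and 5626 bp for HK2. The choice of length multiplies the ratio in all libraries alike, so the order of the libraries does not depend on it.

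**Figure D2:**
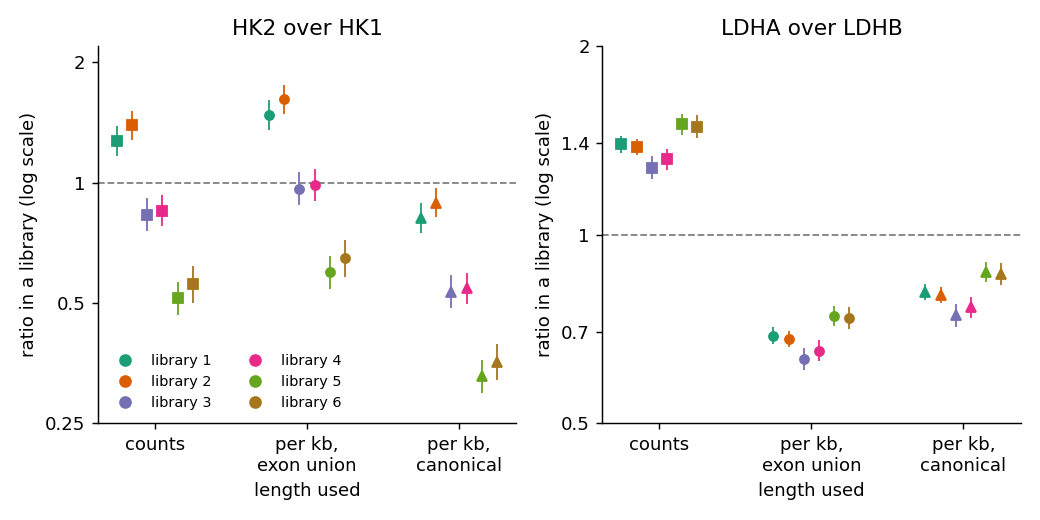
Ratio of HK2 to HK1 and of LDHA to LDHB in each library (log axis), by counts and per kb of the summed exons or of the canonical transcript, with exact binomial 95% intervals for counting error. The LDHA to LDHB ratio lies above 1 by counts and below 1 per kb, whereas the HK2 to HK1 ratio per kb of summed exons runs from 0.596 to 1.62.

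The hexokinase family has further members outside the 8 genes. HKDC1, a hexokinase domain protein, had 37.7 to 51.4 CPM in libraries 1 to 4 and 119 and 116 CPM in libraries 5 and 6. Per kb of exon it made up 19.4% to 23.2% of the hexokinase RNA in libraries 1 to 4 and 49.6% and 48.3% in libraries 5 and 6. The share of HK2 ran the other way, from 46.1% and 49.7% in libraries 1 and 2 to 18.8% and 20.3% in libraries 5 and 6. HK1 held 30.8% to 39.7%, and HK3 had 5 counts in all. Which hexokinase led depended on the length used. With canonical transcripts, an alternative added after the data were examined, HK1 had the highest share in all 6 libraries, at 43.7% to 53.5%. HK2 then had 36.1% and 39.1% in libraries 1 and 2 and 14.4% and 15.6% in libraries 5 and 6, and HKDC1 had 41.7% and 40.7% in libraries 5 and 6.

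The single count of PKLR over all 6 libraries has a Poisson 95% interval of 0.025 to 5.57 counts. Several other genes of hepatic glucose handling were also near 0. SLC2A2, the liver glucose transporter, had 8 counts over 3 libraries and at most 0.449 CPM, whereas the widely expressed SLC2A1 had 219 to 618 CPM. G6PC1, which releases glucose, had 1 count and PCK1, which makes phosphoenolpyruvate for gluconeogenesis, had 0 counts in all libraries. FBP1, which removes a phosphate from fructose 1,6-bisphosphate, was present at 31.1 to 42.2 CPM. These near-zero levels stood beside the absent hepatocyte markers given above, and the relation between the sets was not tested. In bulk RNA, fewer cells of a type and less RNA per cell cannot be told apart.

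**Figure D3:**
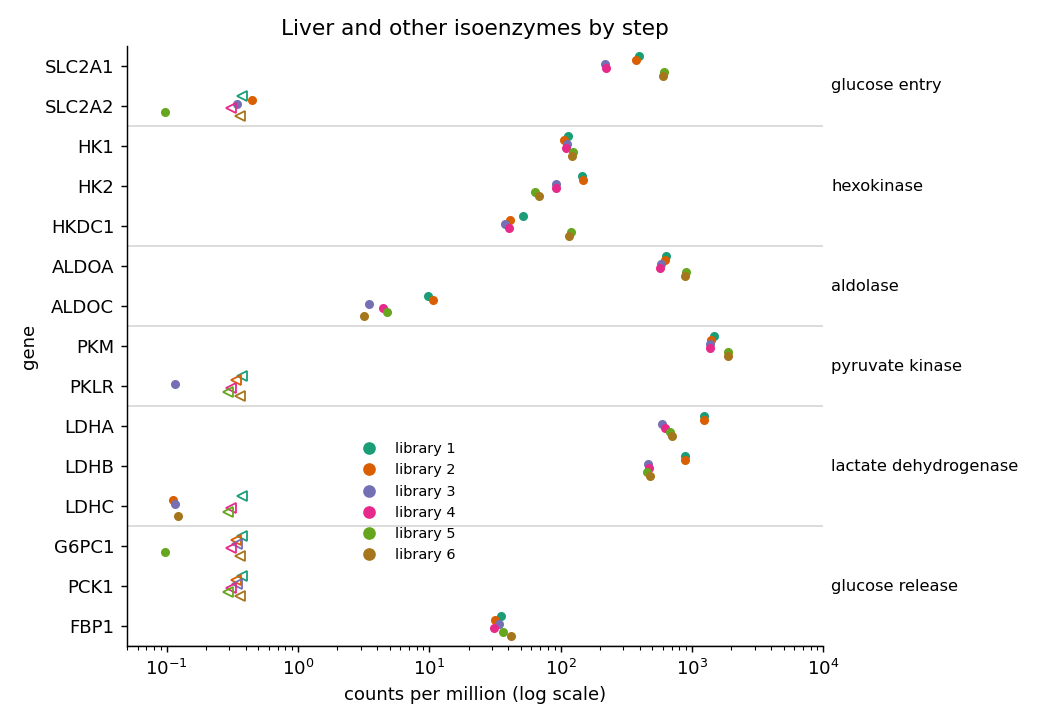
CPM (log axis) of liver and other isoenzymes by step, 1 point per library, with an open triangle at 3 counts where a gene had 0. PKLR has 1 count over all libraries, whereas PKM, ALDOA, LDHA and LDHB lie between 457 and 1896 CPM.

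Per kb of summed exons, the median levels ran from PKM (167 CPM per kb), ALDOA (165), LDHB (159) and LDHA (116) to HK1 (16.4), HK2 (15.6) and ALDOC (1.77), with PKLR last at 0. The ranges over libraries of PKM, ALDOA, LDHB and LDHA overlapped from neighbor to neighbor, as did those of HK1 and HK2. Overlap of these ranges does not show that neighbors were alike within a library, since the LDHA level per kb was below that of LDHB in all 6. The other 3 steps in the order, from LDHA to HK1, from HK2 to ALDOC and from ALDOC to PKLR, had separate ranges. Within single libraries and per kb of summed exons, LDHB was the most abundant of the 8 in libraries 1 and 2, PKM in libraries 3 and 4, and ALDOA in libraries 5 and 6. With canonical transcripts LDHB was again the most abundant in libraries 1 and 2, but PKM was so in libraries 3 to 6, above ALDOA at 818 against 553 CPM per kb in library 5 and 823 against 537 in library 6. The order of medians was the same with these lengths, and the ranges of PKM and ALDOA and of HK1 and HK2 were separate as well.

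The spread over libraries was set beside that of all genes. Of the 8 genes, 6 had a median of at least 10 CPM, and 4 of these, HK2, ALDOA, LDHA and LDHB, had a highest library at least 1.5-fold above the lowest. The same held for 53.2% of the 9184 genes with such a median, and the median of the highest to lowest ratio was 1.77 for the 6 genes and 1.53 for all. A wider spread than that of HK2 was seen for 11.97% of genes, and the shares were 17.9% for LDHA, 22.3% for LDHB, 44.9% for ALDOA, 66.5% for PKM and 94.1% for HK1. With edgeR's TMM scaling, which raised libraries 5 and 6 relative to the others, PKM passed as well, at 1.54-fold. The count became 5 of 6 against 51.7% of genes. Under TMM the spread of HK1 was wider, at 1.27-fold, and that of HK2 was 2.13-fold. The shares of genes with a wider spread are those of column totals only. MALAT1, an abundant nuclear RNA, took 1.71% and 1.755% of counts in libraries 1 and 2 and 3.37% and 3.45% in libraries 5 and 6. With totals that leave out mitochondrial and the 10 highest genes, HK2, ALDOA, LDHA and LDHB passed, against 53.1% of genes. The part of MALAT1 alone in the CPM differences was not tested.

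**Figure D4:**
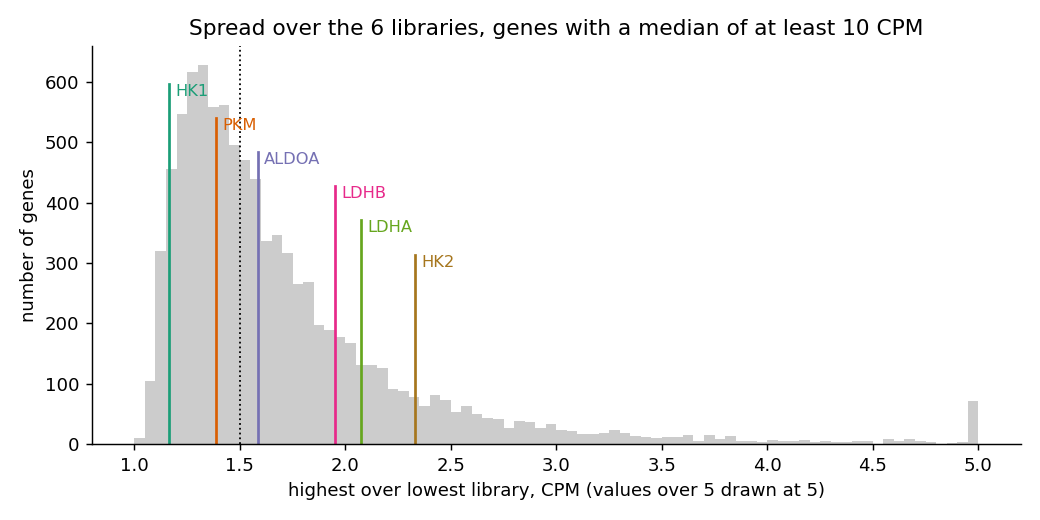
Highest over lowest library in CPM for the 9184 genes with a median of at least 10 CPM (grey, number of genes per bin of 0.05) and for the 6 genes described here that reach it (colored lines, whose height has no meaning), with a dotted line at 1.5. HK1 lies among the steadiest genes at 1.17, and HK2 is widest at 2.33.

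The rest of the pathway was measured by a list of 22 further genes of glycolysis and of glucose or lactate transport. Of these, 15 had a median of at least 1 CPM and 7 stayed below 1 CPM in every library. The highest was GAPDH, at 1567 to 2039 CPM, and SLC2A3 was at 0 throughout. Of 6 genes of gluconeogenesis, 3 had a median of at least 1 CPM. The highest by median was FBP1, and PC and PCK2 had medians of 32.7 and 11.6 CPM.

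Processed pseudogenes can take reads from these genes. The annotation lists 17 by symbol, 6 for LDHA, 5 for PKM, 3 for LDHB, 2 for ALDOA and 1 for HK2. They held 97 counts over all libraries, of which 66 were of LDHAP4. The LDHA pseudogenes together amounted to 0.169% of the LDHA counts, the largest such share among the 8 genes.

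As a description of shape, the gene whose log2 CPM over the 6 libraries had the highest Pearson r was found for each of the 7 isoenzymes with a count in every library, among genes with a median of at least 10 CPM. For LDHA this was CA9 (r = 0.999, 9.88 to 32.4 CPM). For LDHB it was KIF5B, for HK2 GMNN, for HK1 SF3B4, for ALDOA PSMC5, for ALDOC TTC38 and for PKM HSD17B4, with r from 0.9964 for ALDOC to 0.9997 for HK2. Such values were common, with 335 of 9143 genes above 0.95 for LDHA and 886 for HK2. The libraries lie close together in pairs, as the chi-square values show, so each r rests on few distinct levels.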

How the data were processed

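The deposited table holds raw counts per gene for 6 libraries of rRNA-depleted total RNA. According to the methods, the authors trimmed paired reads with Cutadapt and aligned them with STAR to hg19, and the counting tool and its strand setting are not given in the sources used here. Columns were used as 6 separate libraries without a condition, so no groups were compared by a test, and Dixon's criterion was used only to find a library far from the others. Identifiers were matched to GENCODE release 44 by stable identifier (55482 of 60203), which also gave gene lengths and the GRCh38 coordinates printed for genes. CPM is the count divided by the column total. Levels between genes were compared per kb of summed exons. Intervals are exact (Poisson or binomial, SciPy 1.17.1) and cover counting error only, since they are made from the counts alone. The methods name no molecular identifiers, so copies of a molecule may be counted more than once and the intervals may be too narrow. Scaling alternatives used edgeR 4.0.16 and DESeq2 1.42.0, and the spread and likeness measures were tested on simulated data. All 8 genes are given, other pathway genes by list, as isoenzymes of the same steps or as the highest and lowest of a list, pseudogenes by symbol, and 1 gene of closest shape for each. Transport, gluconeogenesis and phosphofructokinase genes outside that rule were chosen after their values were seen. The genes and lists were chosen with earlier results of these data known. Some genes of the fixed lists are not reported here. PECAM1 was not matched by identifier and is not analysed here.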

Additional observations from a re-analysis of the deposited data

Results flagged for a closer look

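PKLR in library 3, at 0.115 CPM, stood apart from the other 5 libraries, which were at 0. The value is 1 count, and its Poisson 95% interval of 0.003 to 0.64 CPM includes the level of 3 counts in any library. It was the single one of 13 sets of 6 values flagged by Dixon's critical value of 0.625. With the other 5 libraries at 0, any count gives a gap equal to the whole range, so this flag was fixed in advance. In the other sets a flag was unlikely, because the libraries lie close together in pairs. The usual rate of about 1 chance flag in 20 sets therefore does not apply, and no conclusion is drawn from the flags.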

How the results depend on the processing

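Gene length decided the isoenzyme ratios that changed. As median log2 ratio per kb over libraries, LDHA over LDHB was -0.54 with summed exons, -0.31 with canonical transcripts and 0.47 with no length correction, where the direction turned. HK2 over HK1 was -0.03 and became -0.89 with canonical transcripts. The lower bound for PKM over PKLR was 10.68 and rose to 12.51 with canonical transcripts and 12.11 without length. The number of neighbors with separate ranges in the order of levels rose from 3 to 5 with canonical transcripts. With pseudogene counts added, all 4 ratios moved by less than their SD over libraries. So did ALDOA over ALDOC with either change of length and HK2 over HK1 without length. A change of length shifts a ratio in all libraries alike, so that SD is no measure of its effect. ALDOA over ALDOC rose from 6.66 to 7.18 with canonical transcripts and 7.21 without length, where its SD was 0.897. The SD of LDHA over LDHB was 0.092. With pseudogenes added, ALDOA over ALDOC could not move, since their pseudogene counts were 0. The other ratios could hardly move, since pseudogenes held at most 0.169% of a gene's counts, so no conclusion is drawn from this alternative. Of 32 median CPM values under other scalings, 31 moved by less than the SD of that gene's CPM over libraries. The 1 that moved by more was of HK1 with totals that leave out mitochondrial and the 10 highest genes (123 against 113 CPM). The 31 include those of PKLR, whose median of 0 no scaling can move. These totals shift all genes by 0.11 to 0.16 on the log2 scale. The scaling alternatives for the spread were chosen after the data were examined, and all 21 highest to lowest ratios stayed within 1.5 times their value. These alternatives shift the libraries by -0.055 to 0.157 on the log2 scale, too little for any ratio to move 1.5-fold. That outcome was therefore fixed in advance. Depth limits PKLR, whose levels below 3 counts per library (0.293 to 0.373 CPM) were not measurable.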

Other observations

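Other steps of glycolysis also have isoenzymes. For phosphofructokinase, which commits sugar to glycolysis, the platelet form PFKP had a median of 17.8 CPM per kb, the muscle form PFKM 11.4 and the liver form PFKL 4.03. Unlike PKLR, PFKL was present in every library, at 30.9 to 40.8 CPM. For enolase, the ubiquitous ENO1 had a median of 229.6 CPM per kb, against 2.90 for the neuronal ENO2 and 1.05 for the muscle form ENO3. For phosphoglycerate mutase, PGAM1 had 60.7 to 134 CPM, with its lowest levels in libraries 5 and 6, and the muscle form PGAM2 had 5 counts over all libraries. LDHC, the testis form of lactate dehydrogenase, had 3 counts. The lactate exporter SLC16A3 had a median of 24.5 CPM and the monocarboxylate transporter SLC16A1 219.6 CPM, both with the highest to lowest ratio between 1.64 and 1.88.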
